A study of Solanum lycopersicum with 9 samples.

Results

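The PIN genes encode the PIN-FORMED auxin efflux carriers, and their transcripts were followed in the locular tissue of young tomato fruit after editing of SlZFP2, the gene of a zinc finger transcription factor. The members described are the 9 gene identifiers listed for SlPIN2 to SlPIN10, out of 34075 genes in the count table, and 7 of the 9 held enough counts to be tested. The table gives identifiers without names. The reference gene table (RefSeq, SLM_r2.1) lists symbols PIN2 to PIN10 on the chromosome numbers that the 9 identifiers carry, which is a check of the chromosome and not of each pairing. The reference tables used here hold no sequences for these genes, so none are shown.

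PIN proteins sit in membranes and move auxin, the hormone indole-3-acetic acid, out of the cytoplasm. Those placed on one side of the plasma membrane give auxin transport its direction from cell to cell, while in Arabidopsis PIN5 and PIN8 lie in the endoplasmic reticulum and act on auxin within the cell. In tomato fruit, auxin takes part in fruit set, cell division and cell expansion, and the locular tissue is the part that swells around the seeds and turns to gel. Roles given below from Arabidopsis belong to the gene of the same number there, and a shared number does not show that the tomato gene is its counterpart.

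Line c2.11 and line c2.5, 2 CRISPR-edited lines of SlZFP2, were each set against the wild type (WT) and against each other. All plants were of the dwarf cultivar Micro-Tom, and fruits were taken 6 days after anthesis. Each genotype had 3 libraries of messenger RNA, each from a pool of locular tissue of 6 fruits with the seeds removed. The sources used here give neither the edited bases nor whether the pools came from separate plants, so the p-values may measure only the spread between pools.

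The libraries held 19963325 to 20727310 counts each. The first principal component held 70.2% of the variance and set the line libraries (30.0 to 44.9) apart from the WT libraries (-85.2 to -77.4). On the second, c2.5 replicate 2 lay farthest out at -39.5, and calls that end without it are named below. SlZFP2 itself was scarce, with 15 to 49 counts per line library and 11 to 21 per WT library, and its counts do not check the edit. It was called higher in c2.11 (2.06-fold, edgeR adjusted p = 0.0190) and in both lines together (1.70-fold, edgeR adjusted p = 0.0487, but 0.0808 with DESeq2), and was not called in c2.5 (1.40-fold, edgeR adjusted p = 0.276). All 4 identifiers listed from general knowledge as carpel and locule MADS genes were counted in every library, and their summed level was 641 to 670 normalized CPM in c2.11, 623 to 643 in c2.5 and 543 to 574 in WT. Of the 4, 3 were called higher in both lines together, beside 28.5% of all tested genes. Among these, Solyc02g071730.4 had line libraries that overlapped WT and was not called in c2.5 (edgeR adjusted p = 0.197). The one of the 4 with the most counts was not called (log2 0.12, edgeR adjusted p = 0.0704). With libraries scaled by total counts it was called higher (log2 0.40, edgeR adjusted p = 1.03e-05). Normalized CPM are counts divided by a library size that was scaled so that the typical gene is level between libraries. For the 3 identifiers listed in the same way as fruit epidermis genes the sum was 70.7 to 104 normalized CPM in c2.11, 70.3 to 80.9 in c2.5 and 50.5 to 59.0 in WT. Of these 3 genes, 2 were tested and 1 rose in both lines together (log2 1.06), beside 28.5% of all tested genes. The other tested gene, Solyc01g091630.3, was not called (log2 0.04, edgeR adjusted p = 0.567). None of the 3 was at 0 in any library. The scarcest of them, which was not tested, had 55 counts in c2.11 replicate 3 and 20 in c2.5 replicate 3, against 1 to 7 in the other libraries. The part of epidermal tissue in the PIN differences was not tested.

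The PIN transcripts changed in both directions in the edited lines. SlPIN7 and SlPIN9 rose most, SlPIN8, SlPIN3 and SlPIN6 rose less, and SlPIN4 fell. SlPIN5 did not pass the test, and SlPIN2 and SlPIN10 were too scarce to be tested. In both lines together against WT, 5 of the 7 tested members rose and 1 fell (edgeR quasi-likelihood test, Benjamini-Hochberg adjusted p under 0.05), against 28.5% of all tested genes that rose and 28.6% that fell. Called members thus made up 85.7% of those tested, beside 57.1% of all tested genes, so a call alone sets a member little apart from other genes. In normalized CPM, the 6 line libraries and the 3 WT libraries did not overlap for the same 6 members. Of all tested genes, 49.5% had such a gap. The median log2 change of the 7 members was 0.47, beside 0.01 over all tested genes, and the median size was 0.73 beside 0.30. With the scaling used here, the summed level of all members described did not rise with this median. It was 347 to 387 normalized CPM in c2.11, 377 to 411 in c2.5 and 405 to 448 in WT. The c2.11 range lay below WT, and the c2.5 range overlapped it. This order of the sums depends on the scaling. With total count scaling the median log2 change of all tested genes was 0.29, in place of 0.01. SlPIN4, which fell, had the most counts of the members and weighs most in this sum. Of the 7, 2 rose at least 2-fold, as did 7.43% of all tested genes. The same 6 members passed in each line, with 54.6% of all tested genes called in c2.11 and 49.9% in c2.5. Both lines were set against the same 3 WT libraries. In a bulk sample, fewer cells that express a gene and less of its RNA per cell cannot be told apart.

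**Figure D1:**
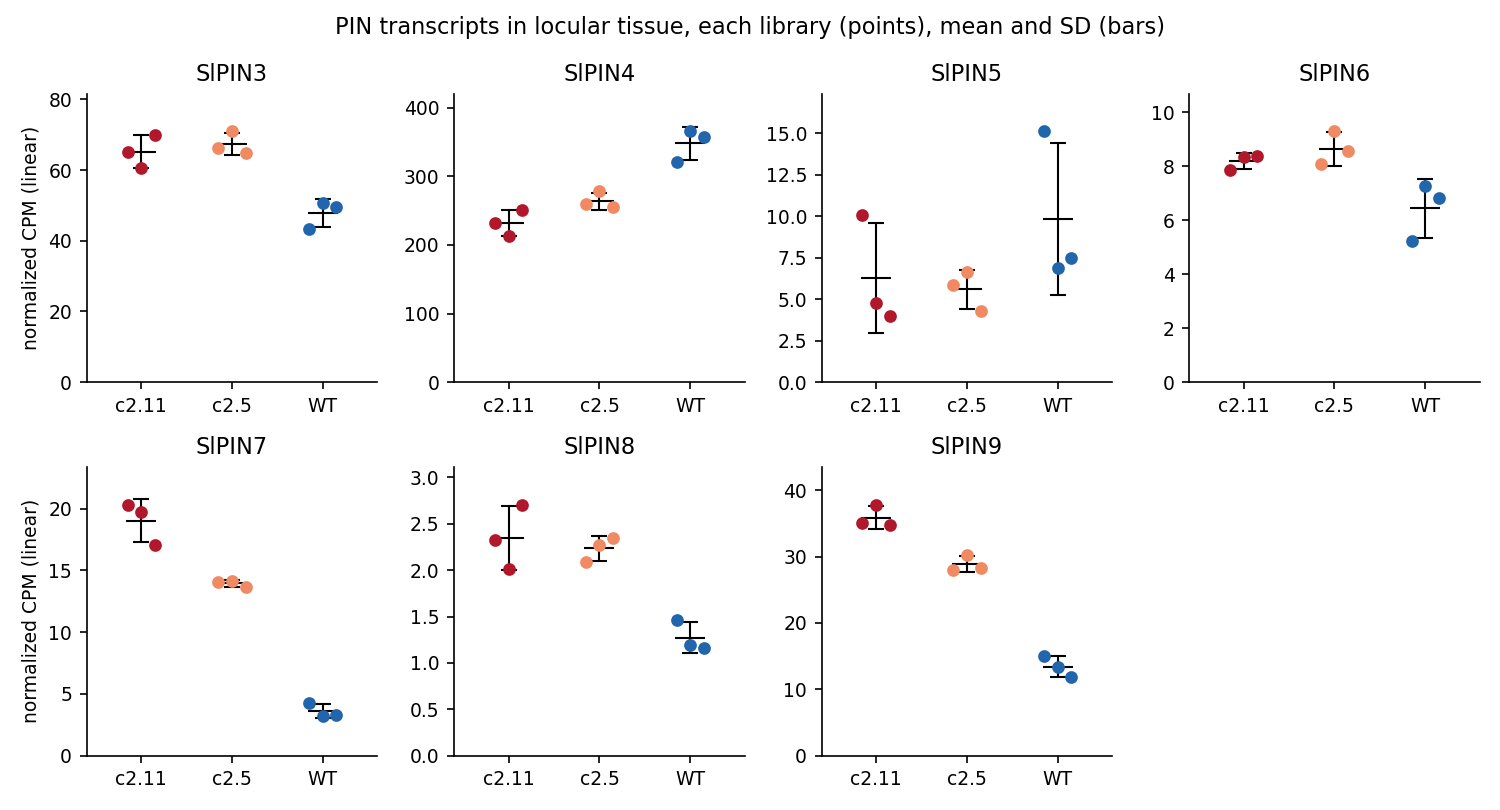
Normalized CPM (linear axis from 0) of the 7 tested PIN genes in each library of c2.11, c2.5 and WT, with the mean and SD of 3 libraries per genotype. SlPIN7 and SlPIN9 stood highest in c2.11 and lowest in WT without overlap, SlPIN4 ran the other way, and SlPIN5 varied widely within c2.11 and WT.

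SlPIN7 (Solyc10g080880.2, chromosome 10) showed the widest difference from WT among the 7 tested members. Its level was 20.3, 19.8 and 17.0 normalized CPM in the c2.11 libraries, 14.1, 14.2 and 13.6 in the c2.5 libraries, and 4.24, 3.24 and 3.31 in the WT libraries. No line library came near WT, and the 2 lines did not overlap either. SlPIN7 was 5.28-fold higher in c2.11 (log2 2.40 ± 0.12, SE, edgeR adjusted p = 7.30e-09) and 3.87-fold higher in c2.5 (log2 1.95 ± 0.12, edgeR adjusted p = 4.97e-08). In WT the gene rested on 57 to 78 counts per library, so its low level there is the less precise side of the ratio.

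SlPIN9 (Solyc10g078370.2, chromosome 10) showed the same order of genotypes. Its level was 35.1, 37.8 and 34.7 normalized CPM in c2.11, 28.01, 30.3 and 28.3 in c2.5, and 15.0, 13.4 and 11.9 in WT. The 3 genotypes did not overlap. The gene was 2.67-fold higher in c2.11 (log2 1.42 ± 0.08, SE, edgeR adjusted p = 3.19e-08) and 2.15-fold higher in c2.5 (log2 1.10 ± 0.08, edgeR adjusted p = 3.22e-07).

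SlPIN4 (Solyc05g008060.4, chromosome 5) was the only tested member called lower in these fits. In tomato, silencing SlPIN4 has been reported to give fruits that form without seeds. Its level was 231, 213 and 251 normalized CPM in c2.11, 259, 278 and 255 in c2.5, and 321, 366 and 356 in WT. Every c2.11 library lay below every c2.5 library, and both lines lay below WT. SlPIN4 was at 0.667 of its WT level in c2.11 (log2 -0.58 ± 0.07, SE, edgeR adjusted p = 1.64e-05) and at 0.759 in c2.5 (log2 -0.40 ± 0.07, edgeR adjusted p = 0.000418). The direction held with total count scaling, but the size shrank to -0.31 in c2.11 (edgeR adjusted p = 0.00124) and -0.11 in c2.5, where the call ended (edgeR adjusted p = 0.142).

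SlPIN3 (Solyc04g007690.3, chromosome 4) rose by similar amounts in the 2 lines. In Arabidopsis, PIN3 redirects auxin sideways in organs that bend toward light or gravity. SlPIN3 had 65.2, 60.6 and 69.8 normalized CPM in c2.11, 66.3, 71.0 and 65.0 in c2.5, and 43.3, 50.8 and 49.6 in WT. The lines overlapped each other, and all 6 line libraries lay above WT. The gene was 1.36-fold higher in c2.11 (log2 0.45 ± 0.07, SE, edgeR adjusted p = 0.000226) and 1.41-fold higher in c2.5 (log2 0.49 ± 0.07, edgeR adjusted p = 0.000108).

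SlPIN6 (Solyc06g059730.3, chromosome 6) rose slightly and least securely. In Arabidopsis, PIN6 has been found both at the plasma membrane and in the endoplasmic reticulum. SlPIN6 had 7.86, 8.34 and 8.40 normalized CPM in c2.11, 8.07, 9.31 and 8.58 in c2.5, and 5.22, 7.27 and 6.84 in WT. All line libraries lay above WT, but WT replicate 2 came close to the lowest of them. The log2 change was 0.35 ± 0.13 in c2.11 (SE, edgeR adjusted p = 0.0331) and 0.43 ± 0.13 in c2.5 (edgeR adjusted p = 0.0134). The c2.11 call ended without WT replicate 1 (log2 0.22, edgeR adjusted p = 0.128), c2.11 replicate 2 (0.33, 0.0807) or c2.11 replicate 3 (0.33, 0.0804), with DESeq2 (0.34, adjusted p = 0.0711), and with only c2.11 and WT fitted (0.36, edgeR adjusted p = 0.0514). In c2.5 it ended without c2.5 replicate 2 (log2 0.37, edgeR adjusted p = 0.0544), and in both lines together without WT replicate 1 (log2 0.25 in place of 0.39, edgeR adjusted p = 0.0519).

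SlPIN8 (Solyc02g087660.4, chromosome 2) was scarce and rose in both lines. Its level was 2.33, 2.02 and 2.71 normalized CPM in c2.11, 2.09, 2.27 and 2.35 in c2.5, and 1.47, 1.19 and 1.16 in WT. These values rested on 44 to 58 counts per line library and 20 to 27 per WT library, and the lines did not overlap with WT. SlPIN8 was 1.84-fold higher in c2.11 (log2 0.88 ± 0.21, SE, edgeR adjusted p = 0.00309) and 1.75-fold higher in c2.5 (log2 0.81 ± 0.21, edgeR adjusted p = 0.00604). Within each genotype its libraries differed about as much as counting alone would give, with a coefficient of variation of 14.7% in c2.11, 6.04% in c2.5 and 13.3% in WT beside counting values of 14.05%, 14.4% and 21.0%.

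SlPIN5 (Solyc01g068410.4, chromosome 1) did not pass the test and varied widely between pools. Its level was 10.05, 4.77 and 4.01 normalized CPM in c2.11, 5.84, 6.61 and 4.29 in c2.5, and 15.1, 6.87 and 7.48 in WT. The first replicates of c2.11 and WT each stood well above the other libraries of their genotype, and c2.11 replicate 1 lay within the WT range. All c2.5 libraries lay below WT, the highest of them (6.61) close to the lowest WT library (6.87). Its coefficient of variation was 52.4% in c2.11, 21.2% in c2.5 and 46.8% in WT, beside 8.60%, 9.14% and 7.54% from counting alone. The log2 difference from WT was -0.65 in c2.11 (95% interval -1.71 to 0.41, edgeR adjusted p = 0.261) and -0.82 in c2.5 (-1.89 to 0.25, edgeR adjusted p = 0.178), so both a marked fall and no change lie within the intervals. Without c2.11 replicate 1 the c2.11 difference was -1.16 (edgeR adjusted p = 0.0384) and that of both lines together -0.99 (edgeR adjusted p = 0.0236), in place of -0.73. Without WT replicate 1 the value for both lines together was -0.28 (edgeR adjusted p = 0.555).

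SlPIN2 and SlPIN10 were hardly counted in any library. In Arabidopsis, PIN2 acts in root gravitropism. SlPIN2 (Solyc07g006900.2, chromosome 7) had 0 counts in all 6 line libraries and 1, 0 and 1 counts in the WT libraries. SlPIN10 (Solyc04g056620.2, chromosome 4) had 1 count in c2.11 replicate 2 and 0 in every other library. A count of 0 allows a level of up to 0.138 to 0.142 normalized CPM in a line library and 0.163 to 0.174 in a WT library (3 counts, counting error only). No difference between genotypes was detectable at this depth for either gene.

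**Figure D2:**
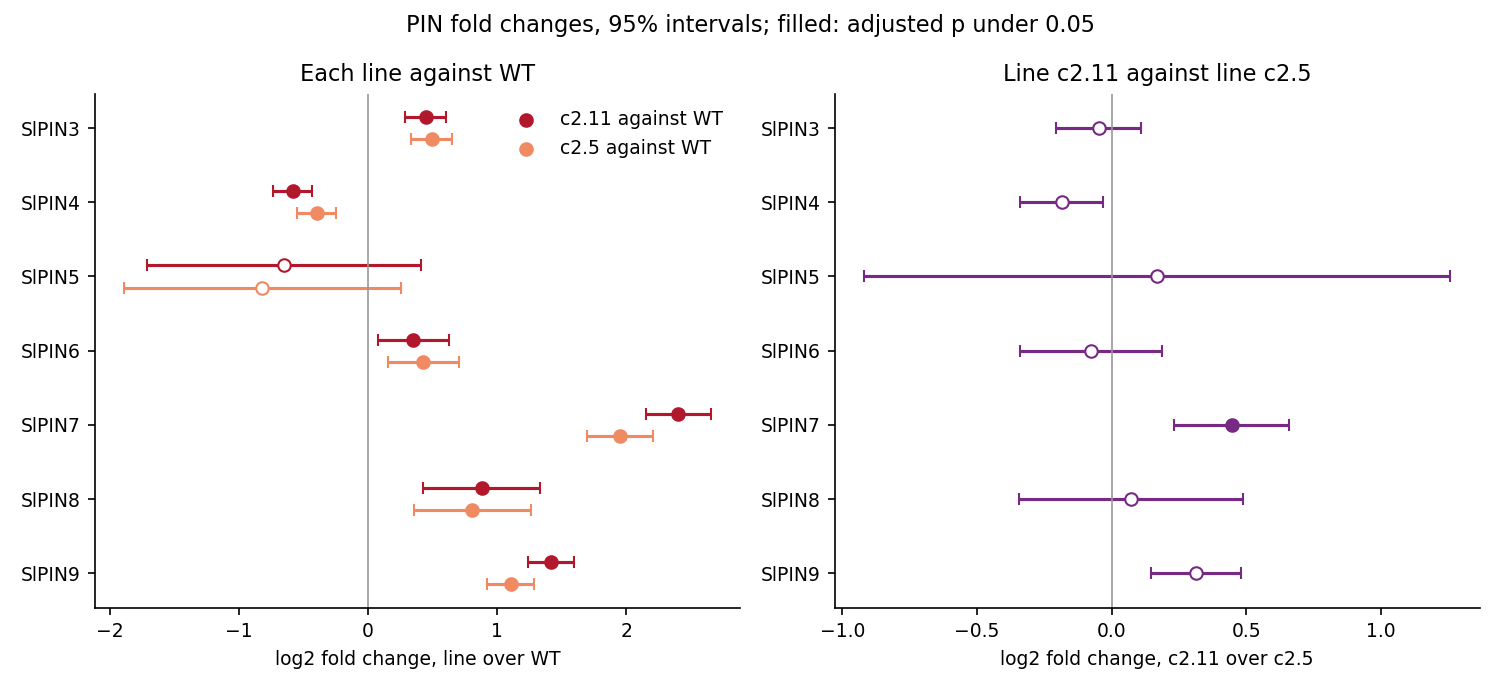
Log2 fold changes of the 7 tested PIN genes with 95% intervals, on the left for c2.11 and c2.5 each over WT and on the right for c2.11 over c2.5, with filled points for an adjusted p under 0.05. The 2 lines lay on the same side of 0 for each gene, and on the right SlPIN7 alone is filled, at 0.45.

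A direct comparison of the 2 lines called 1 of the 7 tested members. SlPIN7 was 1.36-fold higher in c2.11 than in c2.5 (log2 0.45 ± 0.10, SE, edgeR adjusted p = 0.0493), and 1.29% of all tested genes were called in this comparison. The value lies just under the threshold, and the call ended when any one of the 6 line libraries was left out, with edgeR adjusted p of 0.0518 to 0.213. SlPIN9 showed a log2 difference of 0.31 (95% interval 0.15 to 0.48, edgeR adjusted p = 0.0779) and did not pass. For SlPIN4 the difference was -0.19 (95% interval -0.34 to -0.03, edgeR adjusted p = 0.245). The lines did not overlap for these 3 genes, and 24.4% of all tested genes had lines that did not overlap. For SlPIN3 the interval of the log2 difference ran from -0.20 to 0.11, for SlPIN6 from -0.34 to 0.19 and for SlPIN8 from -0.35 to 0.49. These intervals leave room for small differences either way. That of SlPIN5, -0.92 to 1.26, leaves room for a difference of 2-fold.

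Ratios of counts within a library do not depend on how libraries are scaled. A ratio of one gene to another depends on the lengths of both, so only its change between genotypes is read here. SlPIN3 counts were 27.9% to 28.4% of SlPIN4 counts in c2.11, 25.5% to 25.6% in c2.5 and 13.5% to 13.9% in WT. The spread within each genotype was far smaller than the gaps between them. SlPIN9 counts were 13.8% to 17.7% of SlPIN4 counts in c2.11, 10.8% to 11.1% in c2.5 and 3.33% to 4.66% in WT. SlPIN7 counts were 6.80% to 9.26% in c2.11, 5.10% to 5.45% in c2.5 and 0.885% to 1.32% in WT. In these 3 ratios the 3 genotypes were separate and in the order c2.11, c2.5, WT from high to low. The SlPIN8 ratio had the same order, with 0.945% to 1.08% in c2.11, 0.806% to 0.924% in c2.5 and 0.325% to 0.458% in WT. SlPIN4 itself ran the other way, with means of 232 normalized CPM in c2.11, 264 in c2.5 and 348 in WT. Its fall therefore enters each ratio, and a gene at one normalized level in all libraries would show the same order. How many of all tested genes have such an order against SlPIN4 was not counted. The levels of SlPIN3 and SlPIN8 were not called different between c2.11 and c2.5 (log2 -0.05 and 0.07, edgeR adjusted p = 0.818 and 0.909). The SlPIN6 ratio was 3.35% to 3.91% in c2.11, 3.12% to 3.37% in c2.5 and 1.63% to 1.99% in WT, so the lines overlapped each other but not WT. The SlPIN5 ratio overlapped in all genotypes, at 1.60% to 4.34% in c2.11, 1.68% to 2.38% in c2.5 and 1.88% to 4.71% in WT.

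**Figure D3:**
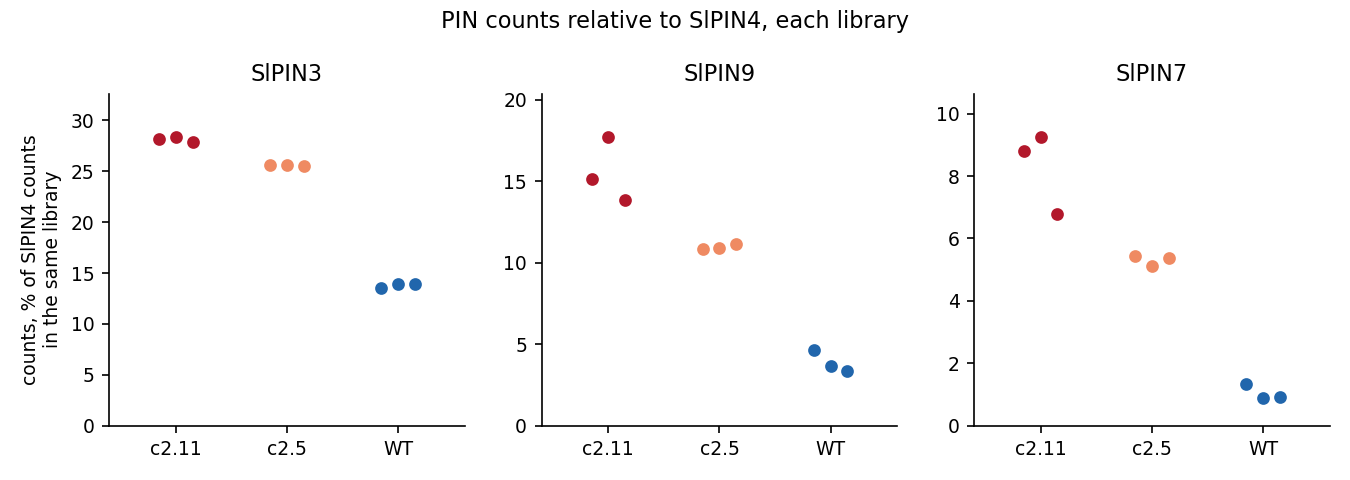
Counts of SlPIN3, SlPIN9 and SlPIN7 as a percentage of the SlPIN4 counts of the same library (linear axes from 0), 1 point per library of c2.11, c2.5 and WT. Each of these ratios was highest in c2.11 and lowest in WT, and for SlPIN3 the points of a genotype nearly coincide. The level of SlPIN4 itself ran in the opposite order.

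The scaling of the libraries bears on the sizes, on SlPIN4 and on the summed level of the members. Scaling by total counts moved the median log2 change of all tested genes in both lines together to 0.29, in place of 0.01, and the members moved with it. With that scaling, 10754 of the 13694 genes called in both lines together were higher. SlPIN7, SlPIN9, SlPIN8, SlPIN3 and SlPIN6 were then called higher in each line, with log2 changes in both lines together of 2.45, 1.54, 1.12, 0.75 and 0.67. In both lines together, as in c2.11, 5 members were then called higher and 1 lower, and the 5 called in c2.5 were all higher, since the SlPIN4 call ended there.

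Over the 9 libraries, 1548 of the 19351 tested genes outside the family followed SlPIN4, the member with the most counts, with a Pearson correlation of log2 CPM above 0.9. The nearest were Solyc05g055550.3 (r = 0.992) and Solyc02g092440.3 (r = 0.988). Solyc05g055550.3 averaged 9.24 ± 0.956 normalized CPM in the 6 line libraries and 14.1 ± 1.42 in the 3 WT libraries (SD). Solyc02g092440.3 averaged 87.3 ± 6.48 in the line libraries and 121 ± 5.99 in the WT libraries. The correlations reflect the shared step between the lines and WT as well as the spread within genotypes, and what these genes encode is not given in the sources used here.

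A list of 14 other auxin identifiers held genes that rose and genes that fell. Efflux by PIN proteins works beside uptake by AUX1/LAX influx carriers, synthesis by YUCCA-type flavin monooxygenases, and reception by TIR1/AFB F-box proteins that lead to the breakdown of Aux/IAA repressors. The 14 identifiers are listed for influx, synthesis and reception and come from general knowledge, as neither table pairs them with names. The reference table places FZY4, a synthesis gene, on chromosome 6, while the identifier recalled for it is on chromosome 9, so its pairing is in doubt. Of the 14, 11 were tested, and in both lines together 4 rose and 5 fell (edgeR, adjusted p under 0.05), or 81.8% called, beside 57.1% of all tested genes called, 28.5% higher and 28.6% lower. Their median log2 change was 0.08, and the median size was 0.67 beside 0.30 over all tested genes.

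Among the 4 tested influx carrier identifiers, 2 rose and 1 fell in both lines together. Of all tested genes, 28.5% were called higher and 28.6% lower there. Solyc01g111310.3 averaged 17.8 ± 1.29 normalized CPM in c2.11, 16.1 ± 1.06 in c2.5 and 6.29 ± 2.00 in WT (SD, n = 3 libraries each), and its log2 fold change over WT was 1.42 ± 0.15 for the 2 lines together (SE, edgeR adjusted p = 1.20e-05). The carrier that fell did so by 0.33 on the log2 scale, and with total count scaling its value was -0.05 and it was not called (edgeR adjusted p = 0.592). Of the 4 tested synthesis identifiers, 2 rose and 1 fell in both lines together, beside the same shares of all tested genes. Solyc08g068160.2 averaged 19.8 ± 1.20 normalized CPM in c2.11, 21.0 ± 0.145 in c2.5 and 4.99 ± 1.44 in WT (SD, n = 3 libraries each), and its log2 fold change over WT was 2.04 ± 0.14 for the 2 lines together (SE, edgeR adjusted p = 1.93e-07). Its rise was near that of SlPIN7, at 2.18 in both lines together. The other that rose, Solyc06g065630.3, had a log2 change of 0.50 (edgeR adjusted p = 0.0316) with line libraries that overlapped WT, was not called in c2.5 (edgeR adjusted p = 0.0838), and lost its c2.11 call with DESeq2 (adjusted p = 0.0619). The synthesis identifier that fell had a log2 change of -1.25. It is the only tested identifier of its class on chromosome 9, where the one recalled for FZY4 lies. The doubt over that pairing may therefore bear on this fall.

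All 3 tested receptor identifiers fell in both lines together, with log2 changes of -0.87 to -0.49, in a comparison where 28.6% of all tested genes were called lower. Their summed level was 244 to 272 normalized CPM in c2.11, 268 to 280 in c2.5 and 412 to 451 in WT. With total count scaling all 3 were still called lower in both lines together, at -0.59, -0.39 and -0.21, and 1 of them was no longer called in c2.5 (edgeR adjusted p = 0.0952). The 4th receptor identifier had 1 count over all 9 libraries.

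**Figure D4:**
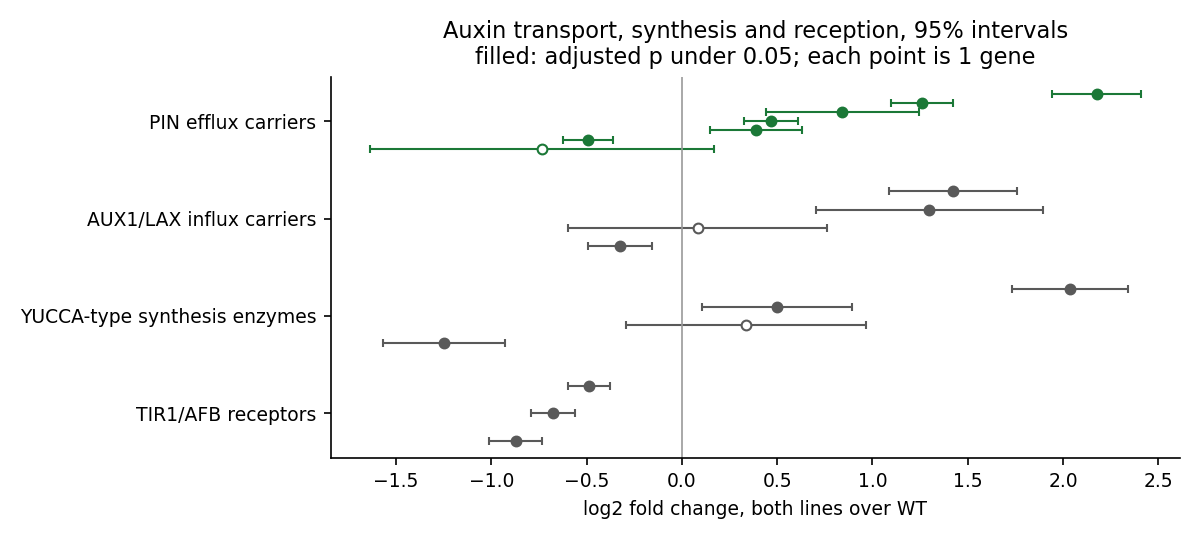
Log2 fold changes of both lines over WT with 95% intervals for the 7 PIN genes and the 11 other tested auxin genes by class, 1 point per gene, filled for an adjusted p under 0.05. The receptors lie between -0.87 and -0.49, while the PIN carriers, influx carriers and synthesis enzymes each hold genes on both sides of 0. The only synthesis gene below 0 is the one on chromosome 9, to which the doubt over the FZY4 pairing may apply.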

How the data were processed

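The deposited table holds raw counts, whole numbers for each gene with 1 column per library. The submitters' processing notes name FastQC and featureCounts. Not given in the sources used here are the aligner, genome build, annotation, strand setting and treatment of reads that map to several places. No coordinates are therefore printed, and counts of overlapping, antisense or near-identical genes may be mixed. Of 34075 genes, 8494 had no count. Genes were kept by filterByExpr (19358 genes), libraries were scaled by TMM, and edgeR 4.0.16 (R 4.3.3) was fitted over all 9 libraries with robust glmQLFit and glmQLFTest. Adjusted p-values are Benjamini-Hochberg over all genes tested, with a threshold of 0.05. The standard error is the size of the log2 change divided by the root of F, and 95% intervals use the test's degrees of freedom. The fit was tested on simulated data in which few genes changed, so that test does not check the scaling of these libraries. Chi-square values of 4.55 or more per degree of freedom showed no library to be a copy of another. Replicate numbers were not taken as pairs, since their deviations did not all move together. All 9 members described are named, and 1 further gene of the family is not reported here and enters no count of members, figure or alternative. Named with them are the 2 genes nearest to the member with the highest mean level. Other auxin identifiers are described by class, with values for some of those called in both lines together, and the 3 given by identifier were chosen after their values were seen. The members, lists and alternatives were chosen with earlier results of these data known. DESeq2 1.42.0 was an alternative.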

Additional observations from a re-analysis of the deposited data

Results flagged for a closer look

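The change of SlPIN7 against WT differed between the lines when c2.11 was tested directly against c2.5, with a log2 difference of 0.45 (edgeR adjusted p = 0.0493, higher in 3 of 3 c2.11 libraries than in any c2.5 library). Of all tested genes, 24.4% had lines that did not overlap. Over the alternatives the adjusted p of SlPIN7 ran from 0.0112 to 0.213, and the call ended in 9 of 16.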

How the results depend on the processing

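The calls of members against WT changed little. In both lines together, c2.11 and c2.5 against WT, 6 members were called in each comparison, and no other tool, scaling, filter or block moved these counts by more than 1.5 times. With 1 library left out at a time these counts ran from 5 to 7, 5 to 7 and 5 to 6, and the 9 called genes of the auxin list ranged from 8 to 10. Of 329 member values against WT under an alternative, 317 kept direction and side of the threshold. The number of members called between c2.11 and c2.5, 1 in the report, was 2 with DESeq2 and with only the genotypes compared, and 0 with median-of-ratios factors, total count scaling or at least 1 CPM in 6 libraries. It was 0 to 2 without single libraries: 0 without any 1 line library, and 2 without WT replicate 1 or 3, where SlPIN9 passed as well. SlPIN7 itself had an adjusted p of 0.0503 with median-of-ratios factors, 0.0713 with total count scaling and 0.0550 with the stricter filter, and the cause was not tested. Signs turned between the lines for uncalled SlPIN3 without c2.11 replicate 2 (0.00296, with a range of -0.0999 to 0.00296 without single libraries), SlPIN5 without c2.11 replicate 1 (-0.34, range -0.34 to 0.41) and SlPIN8 without c2.11 replicate 3 (-0.042, range -0.042 to 0.17). The replicate numbers showed no pairing, with correlations of same-numbered libraries from -0.27 to 0.22. The replicate block gave 7, 6, 7 and 1 members for both lines together, c2.11, c2.5 and the difference between lines, adding SlPIN5 in both lines together (log2 -0.70, edgeR adjusted p = 0.0212) and in c2.5 (-0.74, 0.0379). Counts of 20 to 78 per library in WT limit SlPIN8 and SlPIN7.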
